A study of Mus musculus with 18 samples.

Results

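The IL4 response of L13a knockout macrophages was taken as all genes passing a filter on low counts in 3 knockout libraries treated with IL4, set against 3 untreated knockout libraries. These are 6 of the 18 RNA-seq libraries of the series, and 12514 of the 21954 genes in the count table passed the filter. All libraries were made from mouse macrophages grown from bone marrow. The 3 L13a knockout libraries with IL4 carry the numbers 7, 8 and 9, and the 3 L13a knockout libraries with no treatment carry 1, 2 and 3. For comparison the series holds knockout libraries with interferon (IFN) numbered 4 to 6, and wild-type control libraries with IL4, with no treatment and with IFN under the same numbers. The labels give neither dose, duration, type of interferon, age nor strain, nor the means of deletion, and the series title calls the knockout specific to macrophages. Nor do they say if the 3 libraries of a group have separate animals or cultures behind them, and p-values therefore measure the spread between these libraries, which may be technical. Within a group, values of single libraries are given in the order of their numbers.

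IL4 is a cytokine of type 2 immunity that binds the IL4 receptor alpha chain paired with the common gamma chain or with IL13 receptor alpha 1. The receptor activates JAK kinases, which phosphorylate the transcription factor STAT6. In mouse macrophages this leads to a state called alternative activation, known for arginase 1, resistin-like alpha, chitinase-like proteins and the mannose receptor. L13a, encoded by Rpl13a, belongs to the large subunit of the ribosome. It is also known as a member of the GAIT complex. In myeloid cells treated with interferon-gamma, L13a itself can leave the ribosome. Within the complex it takes part in repressing translation for a set of inflammatory mRNAs.

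Total expected counts were 24499576, 21776298 and 19085954 in the knockout IL4 libraries and 26356050, 19264628 and 27656879 in the untreated knockout libraries, within the range of 18098711 to 28477342 over the series. Rpl13a, the targeted gene, had 206, 333 and 606 CPM (counts scaled to a common library size) in knockout IL4 libraries and 156, 201 and 401 CPM in untreated knockout libraries. The groups overlapped, and the log2 difference of 0.57 gave p = 0.4 in an exact two-sided permutation test (n = 3 each, smallest possible p 0.1). In wild-type cells Rpl13a had 598, 743 and 867 CPM with IL4 and 617, 745 and 746 CPM untreated, above every knockout value except that of knockout IL4 library 9. The transcript was thus still counted in every knockout library. Lyz2, a lysozyme gene of macrophages, had 7.12, 4.21 and 0.682 CPM in knockout IL4 libraries and 5.78, 5.48 and 1.85 CPM in untreated knockout libraries, and 3532 to 12108 CPM in the 6 wild-type libraries with IL4 or no treatment. Insertion of a Cre recombinase into Lyz2 is a common means of deleting genes in mouse macrophages, and the labels do not say whether it was used. Summed RNA of 3 Y-linked genes was 0 to 0.143 CPM in all 9 knockout libraries. It was 116 to 164 CPM in 5 of the 9 wild-type libraries, among them 2 of 3 with IL4 and 1 of 3 untreated. The genotypes thus part in Lyz2 and in Y-linked RNA as well as in Rpl13a. Untreated libraries also part in the fibroblast and stromal markers given below. Effects of all these on any difference between genotypes cannot be told apart. Among other macrophage markers Adgre1 and Csf1r were abundant, while Cx3cr1, Cd14 and Fcgr1 fell and Fcgr3 and Cebpa rose with IL4, as given below. The F4/80 gene Adgre1 had 1720.2, 2127 and 1659.7 CPM with IL4 and 1811, 2579 and 1873 CPM untreated, and the CSF1 receptor gene Csf1r ranged from 2814 to 4025 CPM with IL4 and from 3073 to 4188 CPM untreated. Summed fibroblast and stromal markers were 187, 187 and 1025 CPM in the knockout IL4 libraries and 234, 111 and 417 CPM in the untreated ones, with library 9 and library 3 the highest of their groups. None of the 14 tested fibroblast markers was called. In wild-type libraries the sum was 211, 332 and 479 CPM with IL4 and 866, 922 and 919 CPM untreated. Every untreated wild-type library thus lay above every untreated knockout library. The median log2 fold change of these markers was 0.89 in knockout cells, -0.51 without IL4 library 9, and -1.50 in wild-type cells. In bulk libraries such as these, fewer cells of a type and less RNA per cell cannot be told apart.

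Promoter sequences of 4 induced genes are shown because they hold a spacing of the palindrome that STAT proteins bind, and were picked for that among the windows searched. STAT6 is known for the spacing TTCNNNNGAA, with N4 between the arms, and other STAT proteins for TTCNNNGAA, with N3. Both patterns read the same on both strands. The windows run from 250 bases before to 50 bases after the RefSeq transcript start on build GRCm38.p6, 5′ to 3′ on the strand of the gene, with the match in capitals.
Retnla, chr16:48842359-48842658, plus strand: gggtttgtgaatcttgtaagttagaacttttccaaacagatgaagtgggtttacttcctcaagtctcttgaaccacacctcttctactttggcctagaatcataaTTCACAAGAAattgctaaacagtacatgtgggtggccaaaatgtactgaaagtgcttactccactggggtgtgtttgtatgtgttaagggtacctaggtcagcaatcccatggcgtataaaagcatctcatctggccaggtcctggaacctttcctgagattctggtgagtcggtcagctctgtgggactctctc
Pdcd1lg2, chr19:29410669-29410968, plus strand: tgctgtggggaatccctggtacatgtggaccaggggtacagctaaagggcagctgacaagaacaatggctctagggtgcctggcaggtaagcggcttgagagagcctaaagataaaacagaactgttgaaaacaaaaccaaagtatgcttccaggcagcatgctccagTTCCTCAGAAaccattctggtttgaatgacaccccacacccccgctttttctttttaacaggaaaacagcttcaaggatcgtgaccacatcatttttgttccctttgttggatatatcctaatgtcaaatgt
Chil3, chr3:106167515-106167814, minus strand: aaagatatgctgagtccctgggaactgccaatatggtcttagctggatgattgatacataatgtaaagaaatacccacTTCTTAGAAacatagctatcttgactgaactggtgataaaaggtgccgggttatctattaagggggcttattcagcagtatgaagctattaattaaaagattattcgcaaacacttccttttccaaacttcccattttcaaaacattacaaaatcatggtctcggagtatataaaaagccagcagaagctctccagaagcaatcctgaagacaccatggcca
Cish, chr9:107296409-107296708, plus strand: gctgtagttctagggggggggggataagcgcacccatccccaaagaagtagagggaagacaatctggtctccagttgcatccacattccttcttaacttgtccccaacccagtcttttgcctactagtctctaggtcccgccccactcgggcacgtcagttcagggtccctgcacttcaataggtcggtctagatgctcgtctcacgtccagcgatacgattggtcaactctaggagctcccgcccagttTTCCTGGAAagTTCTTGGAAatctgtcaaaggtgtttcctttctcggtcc
The N4 match began at position -145 from the start in Retnla and at position -82 in Pdcd1lg2. Chil3 held an N3 match at position -172, and Cish held a pair of N3 matches at positions 0 and 11. Of the 12 genes with the largest rises, 9 had a promoter in the table, and 2 of these held the N4 pattern and 1 the N3 pattern. Of 6 other induced genes with a window that were searched, Cish held the N3 pattern, while no window of Socs1, Irf4, Egr2, Mrc1 or Flt1 held either. Of all RefSeq genes with a window 8.01% held the N4 pattern and 9.55% the N3 pattern. The N4 share was 8.91% (41 of 460) for genes called higher, 4.37% (16 of 366) for genes called lower and 6.66% for all genes tested with a promoter. For N3 the shares were 7.61%, 9.56% and 8.39% in the same sets. A match describes the letters of the window and does not show binding.

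In knockout macrophages IL4 raised effector genes of alternative activation such as Retnla, Arg1, Mgl2 and Mrc1, the feedback inhibitors Cish and Socs1, and the regulators Irf4 and Egr2. It lowered the fractalkine receptor Cx3cr1, the microbial sensors Cd14 and Tlr2 and the cytokine gene Tnf. With IL4, 1058 of the 12514 genes differed from untreated knockout cells at an adjusted p under 0.05, which is 8.45% of the genes tested. Of these, 600 (4.79% of all tested) were higher with IL4 and 458 (3.66%) were lower. The change was at least 2-fold for 289 of the higher and 240 of the lower genes, and at least 4-fold for 132 and 81. Adjusted p-values are from edgeR's quasi-likelihood test with Benjamini-Hochberg adjustment over all genes tested, and the standard error (SE) of a log2 fold change comes from the same fit. The groups did not overlap in 591 of the genes called higher and 455 of those called lower, while all 3 IL4 libraries lay above all 3 untreated ones in 11.3% of the genes tested and below them in 10.7%. Leaving out 1 library moved the count to between 597 genes, without untreated library 2, and 1067 genes, without IL4 library 7, and it was 703 without IL4 library 9. Without untreated library 3 and IL4 library 9 together, the libraries with the most fibroblast marker RNA, it was 473, with 277 higher and 196 lower. On the deposited TPM, which count transcripts relative to their length, limma called 353 genes higher and 953 lower, with the median of all genes at a log2 difference of -0.16. That setting changes the test and the measure together. With upper quartile scaling alone edgeR called 548 higher and 558 lower. Of the 1058 genes, 468 stayed below the threshold whichever of the 6 libraries was left out, among them the 12 named rises and 8 of the 12 named falls.

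**Figure D1:**
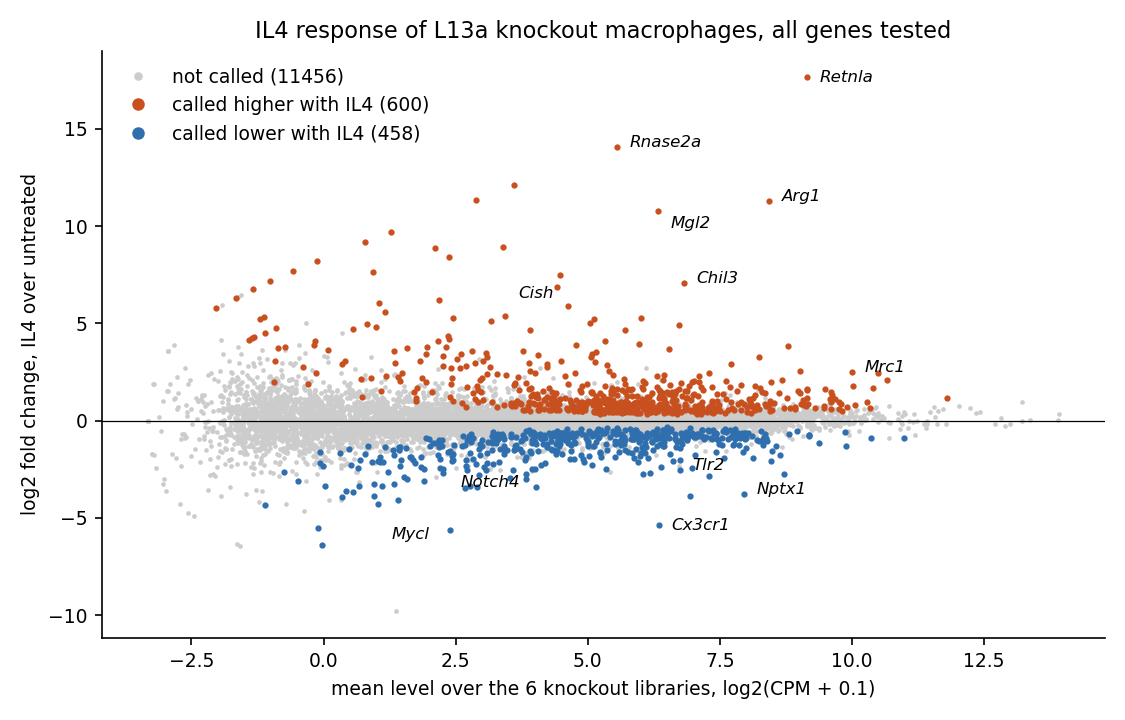
Log2 fold change of each of the 12514 genes tested (IL4 over untreated, L13a knockout cells, vertical axis) against the mean level over the 6 knockout libraries (log2 of CPM plus 0.1, horizontal axis). The 600 genes called higher reach further from 0 than the 458 called lower, with Retnla at the top and Mycl and Cx3cr1 among the largest falls. For genes at 0 CPM in a group, such as Retnla, the fitted value depends on the prior count and is no bound.

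Secreted effectors of alternative activation were among the largest rises. Of 21 such genes tested, 10 rose and 1 fell, with a median log2 fold change of 2.47 beside 0.009 for all genes tested. Retnla, which encodes resistin-like alpha (chromosome 16, 48842551 to 48844461 on mm10, plus strand), had 981, 463 and 1948 CPM in the IL4 libraries and 0 CPM in all 3 untreated libraries. Against a floor of 3 counts over the untreated group it was at least 30007-fold higher, which covers counting error only (adjusted p 0.00172). Arg1, the arginase that turns arginine into ornithine and urea, had 533, 339.7 and 1203 CPM with IL4 and 0.136, 0.334 and 0.363 CPM untreated, a log2 fold change of 11.28 (SE 1.03, adjusted p 1.28e-05). Library 9 was the highest and library 8 the lowest of the IL4 group for both genes, and neither gene overlapped between groups. Chil3, which encodes the chitinase-like protein Ym1, had 385, 96.5 and 189.8 CPM with IL4 and 1.97, 3.05 and 0.0659 CPM untreated (log2 fold change 7.09, SE 1.09, adjusted p 0.000825). Rnase2a, an eosinophil-associated ribonuclease, had 153, 18 and 112 CPM with IL4 and 0 CPM untreated, at least 2609-fold higher (adjusted p 0.000825). Its relative Ear2 had 32.2, 10.5 and 89.9 CPM with IL4 and 0.442, 0 and 0.231 CPM untreated (log2 fold change 7.49, SE 1.29, adjusted p 0.00432). Library 8 was again the lowest of the IL4 group for all 3. Near-identical copies exist for Rnase2a and Ear2 and for Chil3 and Chil4, so the split of reads within each pair is uncertain.

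Effector genes already transcribed in untreated cells rose on a smaller scale. Mmp12, the macrophage elastase, had 2347, 2906 and 2016 CPM with IL4 and 529.9, 315 and 466 CPM untreated (log2 fold change 2.47, SE 0.413, adjusted p 0.00152). Igf1, the insulin-like growth factor, averaged 1148 ± 199 CPM with IL4 and 409 ± 49.8 CPM untreated (SD, n = 3 each), a log2 fold change of 1.49 (SE 0.245, adjusted p 0.00134). Per transcript length, mean levels with IL4 were 4358 TPM for Retnla, 2905 TPM for Mmp12, 928 TPM for Igf1, 871 TPM for Arg1 and 272 TPM for Chil3. The growth factor gene Pdgfb was the member that fell, with 147, 144 and 120.3 CPM with IL4 and 276, 281 and 241 CPM untreated (log2 fold change -0.95, SE 0.164, adjusted p 0.00174). The fibronectin gene Fn1 (38.6 to 336 CPM with IL4, 29.2 to 98.2 CPM untreated, adjusted p 0.413) and the transglutaminase gene Tgm2 (234 to 373 CPM with IL4, 234 to 375 CPM untreated, adjusted p 0.993) did not pass the test. Alox15, a lipoxygenase gene known as a target of IL4, had 10 counts over the IL4 libraries and 10 over the untreated ones and was under the filter.

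**Figure D2:**
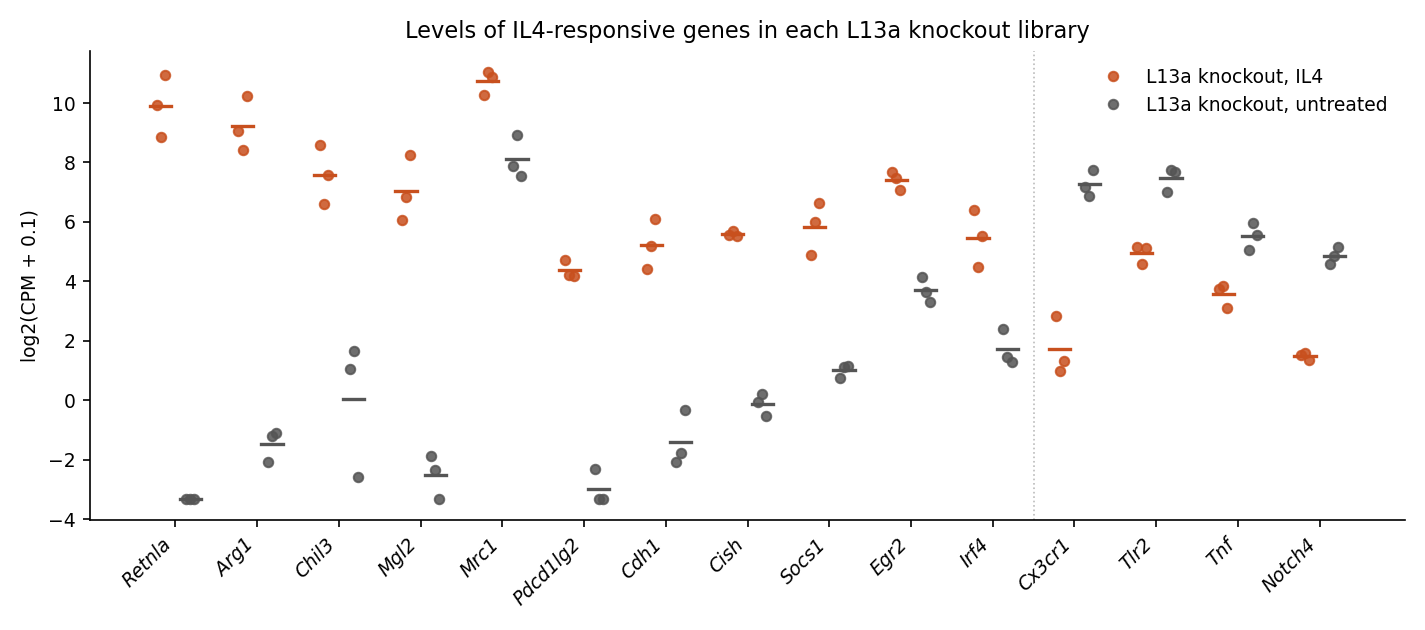
Levels (log2 of CPM plus 0.1) of 15 genes in the 3 IL4 libraries and the 3 untreated libraries of L13a knockout cells, with a point per library and a bar at the mean of the logs. The 11 genes left of the dotted line are higher with IL4 in every library and the 4 genes right of it are lower in every library.

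Surface proteins known from IL4-treated macrophages rose in the largest share of the gene lists examined. Members and lists were chosen with earlier results of these data known, so this ranking is no independent support. Of 24 tested, 15 rose and 1 fell, with a median log2 fold change of 2.08. Mgl2, a galactose-binding lectin, had 66.1, 115 and 302 CPM with IL4 and 0.17, 0.0953 and 0 CPM untreated (log2 fold change 10.77, SE 0.968, adjusted p 7.06e-05). Its close relative Clec10a had 26.4, 30.6 and 63.2 CPM with IL4 and 5.58, 3.1 and 5.44 CPM untreated (log2 fold change 3.08, SE 0.459, adjusted p 0.000659), and reads shared by the pair may have been split between them. Neither lectin overlapped between the groups, and library 9 was the highest of the IL4 group for both. The mannose receptor gene Mrc1 had 1231, 2106 and 1892 CPM with IL4 and 237, 490.1 and 189 CPM untreated (log2 fold change 2.51, SE 0.382, adjusted p 0.000759). Pdcd1lg2, which encodes the PD-1 ligand PD-L2, had 26, 18.4 and 18.1 CPM with IL4 and 0.102, 0 and 0 CPM untreated. With 3 counts in the untreated group its ratio was 569 (exact 95% counting interval 194 to 2761, adjusted p 3.25e-05). Cdh1, the epithelial cadherin that IL4 is known to induce in macrophages, had 21.4, 36.3 and 68.9 CPM with IL4 and 0.136, 0.191 and 0.692 CPM untreated (log2 fold change 6.88, SE 0.674, adjusted p 2.45e-05). Every IL4 library lay above every untreated library for these genes.

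The integrin gene Itgax, which encodes CD11c, had 1234, 672 and 587 CPM with IL4 and 85.5, 41.5 and 44.5 CPM untreated (log2 fold change 3.86, SE 0.537, adjusted p 0.000375). Flt1, a receptor for vascular endothelial growth factor, had 196, 199 and 216 CPM with IL4 and 3.71, 11.1 and 5.37 CPM untreated (log2 fold change 4.93, SE 0.67, adjusted p 0.00031). The scavenger receptor gene Cd36 had 1932, 2321 and 1888 CPM with IL4 and 627, 544 and 779 CPM untreated (log2 fold change 1.65, SE 0.249, adjusted p 0.000696). Every IL4 library lay above every untreated library for these 3 genes, and Itgax varied most within the IL4 group. Among 19 C-type lectins tested, 5 rose and 2 fell, the falls being Clec4e, a sensor of mycobacterial cord factor (log2 fold change -2.50, SE 0.488, adjusted p 0.0046), and Clec12a (log2 fold change -0.98, SE 0.21, adjusted p 0.0084). The 5 rises became 3 without untreated library 1 or 3 or IL4 library 7.

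The remaining genes of the 12 largest rises are less familiar in macrophages. Scn3a, a subunit of a voltage-gated sodium channel, had 19.1, 17.1 and 36.2 CPM with IL4 and 0 CPM in all untreated libraries, at least 639-fold higher (adjusted p 0.000165). Msx3, a homeobox gene, had 1.02, 8.88 and 33.8 CPM with IL4 and 0 CPM untreated, at least 368-fold higher (adjusted p 0.0169), and its IL4 libraries spread widely. The tight junction gene Cldn11 had 2.6, 10.5 and 12 CPM with IL4, against 1 count in the untreated group (ratio 650.3, exact 95% counting interval 116 to 25733, adjusted p 0.000825). The tubulin gene Tuba8 had 5.13, 8.46 and 17 CPM with IL4, against 2 counts in the untreated group (ratio 399, exact 95% counting interval 110.0 to 3300.2, adjusted p 0.000983).

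Genes of the IL4 receptor and its signalling chain mostly did not pass the test. Of 16 tested, 1 rose and 2 fell, with a median log2 fold change of -0.10. Il4ra had 128, 109 and 98.8 CPM with IL4 and 160.5, 158 and 112 CPM untreated (log2 fold change -0.36, adjusted p 0.329), and Stat6 had 293, 219 and 186 CPM with IL4 and 300.2, 282 and 230.3 CPM untreated (log2 fold change -0.22, adjusted p 0.582). Both genes overlapped between the groups. The kinase gene Jak2 rose, with 129, 116 and 81 CPM with IL4 and 41.5, 42.7 and 37.1 CPM untreated (log2 fold change 1.43, SE 0.192, adjusted p 0.000274). Il13ra1, the partner chain of the type 2 receptor, fell to 5.4 ± 2.15 CPM with IL4, against 11.8 ± 2.78 CPM untreated (SD, n = 3 each, adjusted p 0.0325), and the phosphatase gene Ptpn6 was the other fall (log2 fold change -0.69, SE 0.181, adjusted p 0.0265). The 2 falls were lost without untreated library 2 (adjusted p 0.137 and 0.115) and without IL4 library 9 (0.124 and 0.0981). Il13ra1 was also lost without IL4 library 8 (0.112), and Ptpn6 without untreated library 1 (0.0512).

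Several feedback inhibitors of cytokine signalling rose. Of 11 tested, 4 rose and 1 fell. Cish, an inhibitor of JAK and STAT signalling whose promoter is printed above, had 47.5, 51.4 and 45.7 CPM with IL4 and 0.851, 1.05 and 0.593 CPM untreated (log2 fold change 5.87, SE 0.368, adjusted p 3.12e-07). Socs1 had 29.4, 63.4 and 98.3 CPM with IL4 and 1.56, 2.1 and 2.14 CPM untreated (log2 fold change 5.04, SE 0.485, adjusted p 2.17e-05). Socs2 had 8.46, 4.73 and 15.8 CPM with IL4 and 0.238, 0.0477 and 1.25 CPM untreated (log2 fold change 4.18, SE 0.927, adjusted p 0.0106). Cish was nearly equal in the 3 IL4 libraries, whereas Socs1 and Socs2 varied more between them. Socs6 rose by 0.96 on the log2 scale (SE 0.202, adjusted p 0.00733). Socs3, an inhibitor best known for signalling through gp130, fell to 7.41, 8.51 and 6.14 CPM with IL4, against 11.1, 37.7 and 20.01 CPM untreated (log2 fold change -1.64, SE 0.367, adjusted p 0.0111). Its call was lost without untreated library 2 (0.0674) and without IL4 library 9 (0.0539).

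Among 26 transcription regulators tied to alternative activation 9 rose and 1 fell, with a median log2 fold change of 0.59. Irf4, an interferon regulatory factor of type 2 responses, had 84.8, 22.3 and 45.8 CPM with IL4 and 5.17, 2.67 and 2.34 CPM untreated (log2 fold change 3.90, SE 0.492, adjusted p 0.000168). Egr2, a zinc finger factor, had 205, 178 and 136 CPM with IL4 and 17.7, 12.4 and 9.89 CPM untreated (log2 fold change 3.70, SE 0.582, adjusted p 0.000983). Batf3, a leucine zipper factor, had 24.4, 14.8 and 23.6 CPM with IL4 and 0.408, 0.572 and 0.528 CPM untreated (log2 fold change 5.37, SE 0.636, adjusted p 0.000108). All 3 genes were higher in each IL4 library than in any untreated library. The coactivator gene Ppargc1b (log2 fold change 2.68, SE 0.331, adjusted p 0.00014), Bhlhe40 (2.46, SE 0.519, adjusted p 0.0077), Klf4 (2.02, SE 0.367, adjusted p 0.00273) and Tfec (1.56, SE 0.204, adjusted p 0.000222) also rose. Pparg, a nuclear receptor for fatty acids, averaged 57.5 ± 8.89 CPM with IL4 and 29.9 ± 5.37 CPM untreated (SD, n = 3 each, adjusted p 0.0364), a call that was kept with IL4 library 8 left out and lost with any of the other 5 left out (adjusted p 0.0743, 0.163 and 0.0622 without untreated libraries 1, 2 and 3, and 0.0932 and 0.0906 without IL4 libraries 7 and 9). Myc had 36.8, 95.7 and 71 CPM with IL4 and 25.8, 56.1 and 46.7 CPM untreated and did not pass (adjusted p 0.366).

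**Figure D3:**
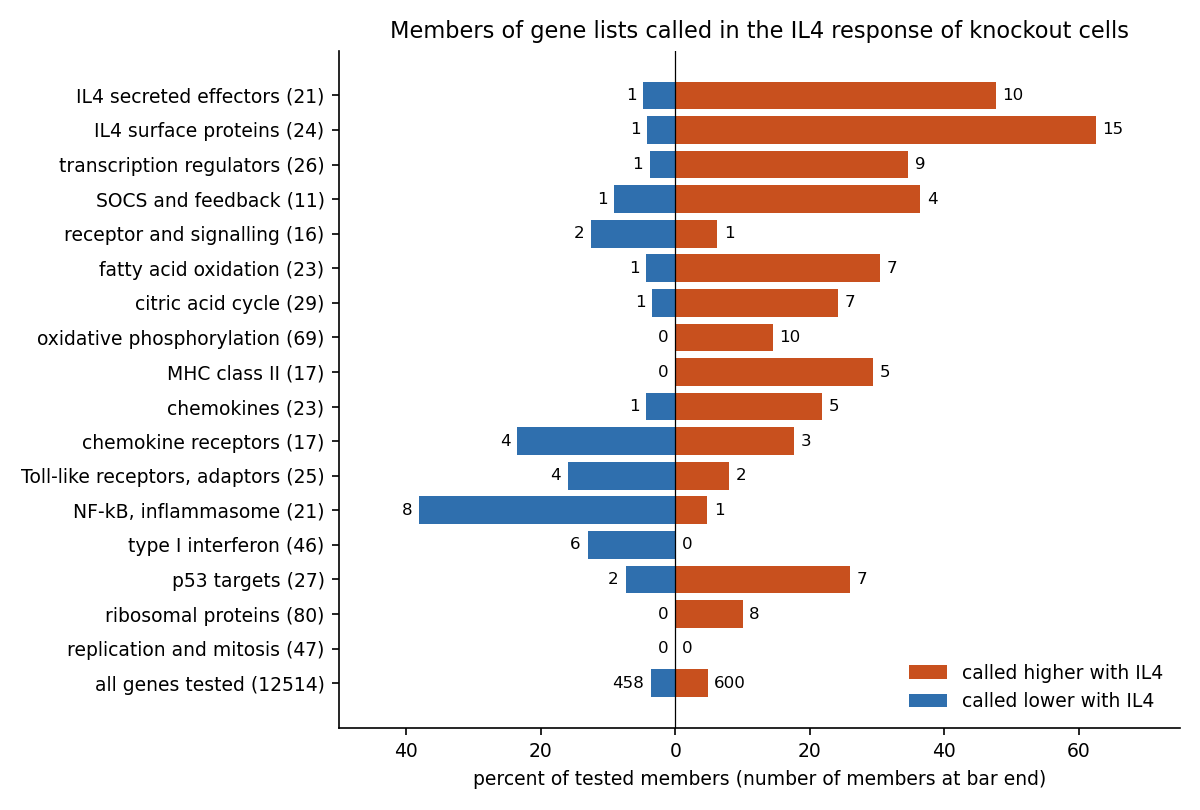
Percent of the tested members of 17 gene lists, and of all genes tested, called higher (right of 0) or lower (left of 0) with IL4 in L13a knockout cells, with the number of members at each bar end. The IL4 surface list reaches furthest to the right with 15 of 24 members, and the NF-kB and inflammasome list furthest to the left with 8 of 21. Members and lists were chosen with earlier results of these data known.

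In arginine and polyamine metabolism 3 of 22 tested genes rose and 1 fell. Besides Arg1, the arginine transporter gene Slc7a2 had 149, 81 and 122 CPM with IL4 and 12.1, 3.67 and 7.35 CPM untreated (log2 fold change 3.92, SE 0.397, adjusted p 3.19e-05). Azin2, an antizyme inhibitor, rose by 1.58 on the log2 scale (SE 0.322, adjusted p 0.00594), and the spermine oxidase gene Smox fell by 0.99 (SE 0.185, adjusted p 0.00315). These 4 genes kept their side of the threshold whichever of the 6 libraries was left out. Odc1, which encodes the ornithine decarboxylase, had 62, 126 and 137 CPM with IL4 and 55.1, 90.5 and 145 CPM untreated and did not pass (adjusted p 0.875).

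In fatty acid oxidation 7 of 23 tested genes rose and 1 fell, with a median log2 fold change of 0.29. Acadl, a long-chain acyl-CoA dehydrogenase, had 79.1, 94.7 and 90.8 CPM with IL4 and 58.2, 61.6 and 58.8 CPM untreated (log2 fold change 0.57, SE 0.106, adjusted p 0.0032), and the enoyl-CoA hydratase gene Echs1 rose by 0.74 (SE 0.151, adjusted p 0.00594). In the citric acid cycle 7 of 29 tested genes rose and 1 fell, the fall being the pyruvate carboxylase gene Pcx (log2 fold change -1.32, SE 0.299, adjusted p 0.0115, but 0.0622 without untreated library 2). Of 69 nuclear genes of oxidative phosphorylation 10 rose and none fell, which is 14.49% of the list, beside 4.79% of all genes called higher. All 69 had a log2 fold change above 0, with a median of 0.56. Over all genes tested 6396 of 12514 were above 0. Cox8a, a subunit of cytochrome oxidase, had 224, 314 and 288 CPM with IL4 and 131, 142 and 159 CPM untreated (log2 fold change 0.94, SE 0.197, adjusted p 0.00733). The 10 calls of oxidative phosphorylation rested on single libraries. They became 1 without untreated library 1, untreated library 2 or IL4 library 9. Without IL4 library 8 there were 2, and without IL4 library 7 there were 22. Without untreated library 3 and IL4 library 9 together none was called, with a median of 0.55 and 67 of the 69 genes above 0. Fatty acid oxidation had 3 rises without untreated library 1 and 4 without untreated library 2 or IL4 library 9, and the citric acid cycle had 2 without untreated library 1 or IL4 library 8 or 9, 3 without untreated library 3 and 4 without untreated library 2. On the deposited TPM the median of all genes was -0.16 and that of oxidative phosphorylation 0.32, with 6 members higher and none lower. There 62 of the 69 genes were above 0. On the same scale fatty acid oxidation had 2 members higher and 2 lower, and the citric acid cycle 1 higher and 1 lower.

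In glycolysis and the pentose phosphate path 2 of 28 genes rose and 2 fell, against 1 higher and 5 lower with limma on the deposited TPM. The platelet-type phosphofructokinase gene Pfkp had 189.8, 184 and 185 CPM with IL4 and 66.3, 69.9 and 76.2 CPM untreated (log2 fold change 1.39, SE 0.121, adjusted p 7.92e-06). The liver-type gene Pfkl had 42.1, 47.3 and 45 CPM with IL4 and 63.2, 87.9 and 73.8 CPM untreated (log2 fold change -0.74, SE 0.154, adjusted p 0.00663). The 2 isoenzyme genes thus moved in opposite directions with no overlap of the groups for either. In iron handling 3 of 18 tested genes rose and 2 fell, and the transferrin receptor gene Tfrc had 567, 782 and 642 CPM with IL4 and 125, 206 and 145 CPM untreated (log2 fold change 2.07, SE 0.282, adjusted p 0.000306). The 2 falls in iron handling were both lost without untreated library 1 or 2 or IL4 library 8 or 9. Tbxas1, the thromboxane synthase, was among 2 of 19 eicosanoid genes that rose (log2 fold change 1.82, SE 0.31, adjusted p 0.00169), beside 1 that fell. Of 24 genes of cholesterol synthesis 1 rose, and of 26 glutathione and NRF2 genes none was called by edgeR (median log2 fold change 0.42 and 0.03). The share called either way was 14.29% in glycolysis, 27.78% in iron handling and 15.79% in eicosanoid genes. In cholesterol synthesis it was 4.17%, and over all genes tested 8.45%.

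IL4 is known to make macrophages fuse into giant cells, and 5 of 23 genes of fusion and osteoclasts rose while 2 fell. Ocstamp, a membrane protein needed for fusion, had 146, 73.8 and 81 CPM with IL4 and 2.55, 1.91 and 7.39 CPM untreated (log2 fold change 4.65, SE 0.565, adjusted p 0.00014). Atp6v0d2, a subunit of the vacuolar proton pump, had 1129, 948 and 569 CPM with IL4 and 231, 130.0 and 90.9 CPM untreated (log2 fold change 2.55, SE 0.383, adjusted p 0.000696). Dcstamp, the relative of Ocstamp, had 40.7, 29.5 and 35 CPM with IL4 and 12.8, 9.01 and 21.7 CPM untreated, without overlap, but did not pass (adjusted p 0.0756). Tnfrsf11a, which encodes the receptor RANK of osteoclast formation, fell to 71.2, 78.1 and 50.6 CPM with IL4, against 140.1, 161 and 156 CPM untreated (log2 fold change -1.19, SE 0.195, adjusted p 0.00122).

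Chemokine genes moved both ways. Of 23 tested, 5 rose and 1 fell. Ccl7, a monocyte attractant, had 26.6, 226 and 125 CPM with IL4 and 1.02, 2.81 and 5.84 CPM untreated (log2 fold change 5.28, SE 0.959, adjusted p 0.00282). Ccl22, a ligand of CCR4, had 41.9, 11.1 and 25.4 CPM with IL4 and 2.38, 2.95 and 4.55 CPM untreated (log2 fold change 2.98, SE 0.611, adjusted p 0.00638). Ccl17, the other CCR4 ligand, had 2.81, 0.236 and 3.7 CPM with IL4 and 0.034, 0 and 0.231 CPM untreated and did not pass (adjusted p 0.0748). Within the IL4 group library 8 was the lowest for Ccl22 and Ccl17 and the highest for Ccl7. Cxcl16 was the fall, with 148, 133 and 132 CPM with IL4 and 287, 355 and 334 CPM untreated (log2 fold change -1.24, SE 0.214, adjusted p 0.00181). The 5 rises became 2 without untreated library 1 or IL4 library 9 and 3 without untreated library 2.

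Of 17 chemokine and complement receptors 3 rose and 4 fell. Cx3cr1, the receptor for fractalkine (chromosome 9, 119901616 to 120069879 on mm10, minus strand), had 7, 1.89 and 2.39 CPM with IL4 and 143, 118 and 214 CPM untreated (log2 fold change -5.38, SE 0.6, adjusted p 6.51e-05). The highest IL4 library thus lay far below the lowest untreated library. Cxcr2, a receptor better known from neutrophils, had 4.92, 3.17 and 3.55 CPM with IL4 and 0.034, 0.143 and 0 CPM untreated (log2 fold change 6.07, SE 0.947, adjusted p 0.00088). Cxcr3 fell to 2.93, 3.17 and 1.56 CPM with IL4, against 14.5, 11.7 and 9.79 CPM untreated (log2 fold change -2.23, SE 0.369, adjusted p 0.0014). The neutrophil genes S100a9, Mpo and Elane were under the filter, and summed neutrophil markers were 19.1 to 41.6 CPM with IL4 and 16.8 to 38.7 CPM untreated, a range that includes Cxcr2 itself.

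In antigen presentation 5 of 17 MHC class II genes rose and none fell, with a median log2 fold change of 0.43. Ciita, the master regulator of this gene set, had 44.1, 11.8 and 24.9 CPM with IL4 and 8.95, 1.91 and 3.53 CPM untreated (log2 fold change 2.47, SE 0.491, adjusted p 0.00515). Cd74, the invariant chain, had 3858, 1563 and 2412 CPM with IL4 and 975, 453 and 412 CPM untreated (log2 fold change 2.09, SE 0.392, adjusted p 0.00336). H2-DMa, which helps load peptides, had 121, 114 and 160.0 CPM with IL4 and 31.1, 21 and 27.9 CPM untreated (log2 fold change 2.30, SE 0.282, adjusted p 0.00014). Library 7 was the highest of the IL4 group and library 1 the highest of the untreated group for Ciita and Cd74. Of 23 MHC class I genes 1 rose, the immunoproteasome gene Psmb10, which is 4.35% of the list, beside 8.45% of all genes tested. Among 8 Fc receptor genes, the inhibitory Fcgr2b rose to 313, 419 and 378 CPM with IL4, against 42.2, 71.2 and 32.5 CPM untreated (log2 fold change 2.93, SE 0.446, adjusted p 0.000799). The high-affinity receptor gene Fcgr1 fell to 16, 14.7 and 25.4 CPM with IL4, against 65.8, 39.6 and 64.1 CPM untreated (log2 fold change -1.60, SE 0.292, adjusted p 0.00283). Icosl, the ligand of the costimulatory receptor ICOS, fell to 3.22 ± 0.456 CPM with IL4, against 15 ± 1.06 CPM untreated (SD, n = 3 each, log2 fold change -2.22, adjusted p 0.00014).

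Some sensors of microbial products were lower with IL4. Of 25 Toll-like receptors and adaptors 4 fell and 2 rose, which is 24.0% of the list, beside 8.45% of all genes tested. Tlr2, a receptor for bacterial lipoproteins, had 35.5, 24.1 and 34.8 CPM with IL4 and 128, 216 and 204 CPM untreated (log2 fold change -2.53, SE 0.378, adjusted p 0.00067). Cd14, the coreceptor for lipopolysaccharide, had 28.6, 40.4 and 45.5 CPM with IL4 and 168, 340.1 and 313 CPM untreated (log2 fold change -2.84, SE 0.459, adjusted p 0.00118). Tlr5, the flagellin receptor, fell to 0.203, 0.378 and 0.0974 CPM with IL4, against 2.14, 5.72 and 2.44 CPM untreated (log2 fold change -3.89, SE 0.86, adjusted p 0.0102). For these 3 genes every IL4 library was below every untreated library. Tlr11 was a rise, with 41 counts over the IL4 libraries and 2 over the untreated ones. Its ratio was 25.0 (exact 95% counting interval 6.48 to 213). Tlr4 had 117, 90.5 and 99.2 CPM with IL4 and 67, 68.7 and 75 CPM untreated and missed the threshold (log2 fold change 0.54, adjusted p 0.0515). Without IL4 library 7 the list held 6 falls, and without any 1 of the libraries other than IL4 library 9 it held 1 rise.

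Genes of NF-kB feedback and the inflammasome had 8 falls and 1 rise among 21 tested, with a median log2 fold change of -0.61. Nlrp3, the inflammasome sensor, had 35.6, 26.2 and 20.02 CPM with IL4 and 60.4, 63.1 and 67.9 CPM untreated (log2 fold change -1.22, SE 0.183, adjusted p 0.000654). The NF-kB subunit genes Relb (log2 fold change -1.29, SE 0.262, adjusted p 0.00583) and Nfkb2 (-1.05, SE 0.201, adjusted p 0.00384) fell as well. Tnf, the tumour necrosis factor gene, fell to 13.3, 14.2 and 8.52 CPM with IL4, against 33.4, 62.8 and 46.9 CPM untreated (log2 fold change -1.99, SE 0.252, adjusted p 0.000168), and was 1 of 2 falls among 16 cytokine genes tested. The 8 falls became 3 without untreated library 2, 4 without IL4 library 9 and 5 without IL4 library 8, whereas Nlrp3, Relb, Nfkb2 and Tnf stayed called whichever library was left out.

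The type I interferon signature had 6 falls and no rise among 46 genes, with a median log2 fold change of -0.54. That is 13.04% of the list, beside 3.66% of all genes tested called lower. Ifit3, an interferon-induced antiviral gene, had 1.55, 0.756 and 1.51 CPM with IL4 and 6.33, 16.6 and 17.5 CPM untreated (log2 fold change -3.39, SE 0.754, adjusted p 0.0107), though reads shared with its near copy Ifit3b may have been split. The count rested on single libraries: it was 0 without IL4 library 8 (adjusted p of Ifit3 0.0517), 1 without untreated library 2 or IL4 library 9, 2 without untreated library 3 and 3 without untreated library 1. Of 35 interferon-gamma response genes 5 rose and 2 fell, with 3 rises and 4 falls without IL4 library 7 and 3 rises without untreated library 2. DESeq2 gave 5 rises and 6 falls, and limma on the deposited TPM 2 rises and 6 falls. Ly6a was a fall, with 40.7, 44.9 and 28 CPM with IL4 and 95, 197 and 179 CPM untreated (log2 fold change -2.05, SE 0.367, adjusted p 0.00241), while Socs1 and Ciita above were rises. Irf1 (29.8 to 69.7 CPM with IL4, 32.1 to 45.5 CPM untreated, adjusted p 0.428) and Cxcl10 (0.52 to 1.61 CPM with IL4, 0.987 to 14 CPM untreated, adjusted p 0.078) did not pass.

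The largest falls not yet described belong to varied families. Mycl, a relative of Myc, had 0.203, 0 and 0.39 CPM with IL4 and 3.78, 5.86 and 20.7 CPM untreated (log2 fold change -5.65, SE 1.09, adjusted p 0.00432). The neuronal pentraxin gene Nptx1 had 35.7, 50.4 and 16.9 CPM with IL4 and 386, 602 and 392 CPM untreated (log2 fold change -3.74, SE 0.54, adjusted p 0.000495). Notch4, a receptor of the Notch family, had 2.77, 2.93 and 2.43 CPM with IL4 and 23.7, 28.6 and 35.6 CPM untreated (log2 fold change -3.43, SE 0.288, adjusted p 5.89e-06). The untreated values exceeded the IL4 values in every pairing of libraries for these 3 genes. Fcrl1 (log2 fold change -3.38, SE 0.299, adjusted p 7.92e-06), the microtubule end gene Camsap3 (-3.00, SE 0.554, adjusted p 0.00305), the Notch ligand gene Dner (-3.47, SE 0.692, adjusted p 0.00521) and the adrenergic receptor gene Adra1a (-2.96, SE 0.599, adjusted p 0.00594) were lower in all 3 IL4 libraries too. Cav1, the caveolin of membrane invaginations, had 11.3, 17.1 and 18.4 CPM with IL4 and 57, 394 and 231 CPM untreated (log2 fold change -3.87, SE 0.962, adjusted p 0.0203). Its adjusted p was 0.0759 without untreated library 2, 0.0654 without IL4 library 7, 0.0709 without IL4 library 8 and 0.0653 without IL4 library 9. The inhibitory lectin gene Siglece (log2 fold change -3.09, adjusted p 0.0223) and the integrin gene Itga8 (-2.97, adjusted p 0.0292) each lost the call without untreated library 2 (adjusted p 0.0805 and 0.105) and IL4 libraries 7 (0.0692 and 0.0854) and 9 (0.0569 and 0.106). Siglece also lost it without IL4 library 8 (0.0738), and Itga8 without untreated library 3 (0.0622).

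Of 80 cytosolic ribosomal protein genes tested other than Rpl13a, 8 rose and none fell in knockout cells, and 79 had a log2 fold change above 0, with a median of 0.43 beside 0.009 for all genes. The 8 calls are 10.0% of the list, beside 8.45% of all genes called either way and 4.79% called higher. Over all genes tested 6396 of 12514 were above 0. Their summed share of normalized counts was 3.08%, 3.81% and 4.40% in the knockout IL4 libraries and 2.39%, 2.36% and 3.45% in the untreated ones, so that the groups overlapped. In wild-type cells the share was 4.01% to 4.92% with IL4 and 3.68% to 4.71% untreated, none of the 80 genes was called and the median log2 fold change was 0.08. The largest rise was that of Rps27l, a variant of S27 also listed among p53 targets in mouse, with 103, 132 and 127 CPM with IL4 and 53.2, 39.5 and 68 CPM untreated (log2 fold change 1.17, SE 0.252, adjusted p 0.00849). Without untreated library 2 none of the 8 was called by edgeR (Rps27l 0.0545). Without untreated library 1 or IL4 library 8 or 9 the count was 1, and without untreated library 3 it was 13. On the deposited TPM 1 member was called, the median was 0.24 and 76 of the 80 genes were above 0. The difference of the responses between genotypes had an unadjusted p under 0.05 in 11 of the 80 genes and an adjusted p of 1. Processed copies of ribosomal protein genes can share their reads, which makes single values uncertain.

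**Figure D4:**
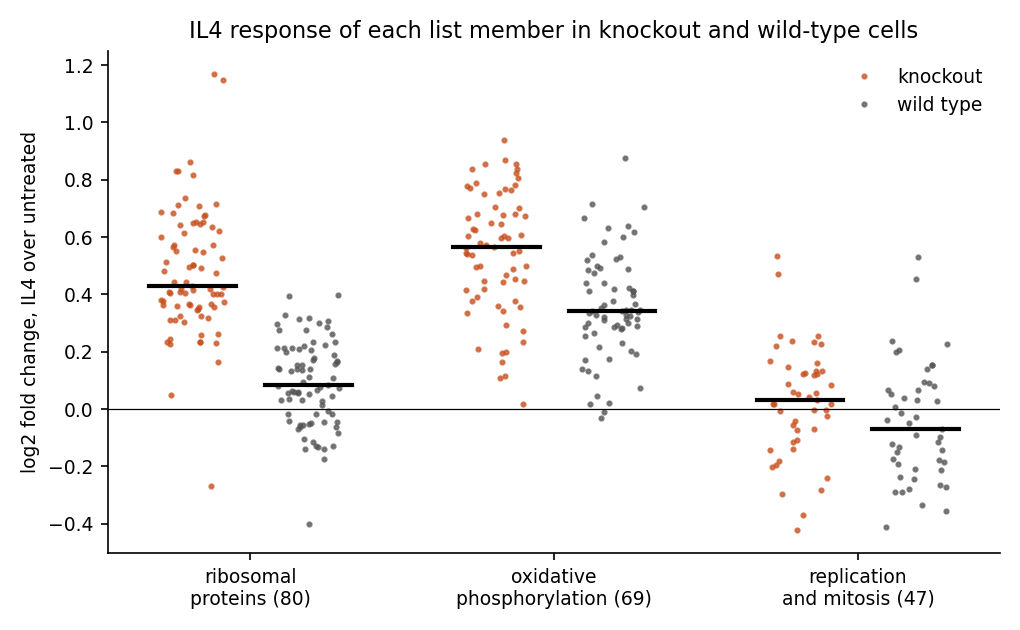
Log2 fold change with IL4 (vertical axis) of each tested gene for ribosomal proteins, oxidative phosphorylation, and DNA replication and mitosis, in knockout (left of each pair) and wild-type cells (right), with a bar at the median. The medians in knockout cells are 0.43, 0.56 and 0.03 and those in wild-type cells 0.08, 0.34 and -0.07.

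None of 47 genes of DNA replication and mitosis was called by edgeR, DESeq2 or limma on TPM, with a median log2 fold change of 0.03. Their summed level ranged from 1867 to 4920 CPM with IL4 and from 1744 to 5136 CPM untreated, a spread within each group wider than any shift between them. The proliferation marker Mki67 had 62.6, 175 and 238 CPM with IL4 and 55.6, 155 and 188 CPM untreated (adjusted p 0.865). Library 7 of the IL4 group and library 1 of the untreated group were the lowest of their groups for Mki67 and for the summed level. The median of the list was 0.57 without untreated library 3, where edgeR called 1 gene, and 0.41 without IL4 library 7, and it was -0.45 without IL4 library 9 and -0.36 without untreated library 1.

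Of 27 p53 targets 7 rose and 2 fell, with a median log2 fold change of 0.41. Ak1, an adenylate kinase, had 51.5, 74.1 and 59.1 CPM with IL4 and 15.2, 17.5 and 21.1 CPM untreated (log2 fold change 1.78, SE 0.309, adjusted p 0.00192). Sesn1, a sestrin of stress responses, had 104, 95.5 and 84.4 CPM with IL4 and 195, 181 and 127 CPM untreated (log2 fold change -0.83, SE 0.175, adjusted p 0.0077). The 7 rises became 1 without untreated library 2, 2 without untreated library 3 or IL4 library 7 and 3 without IL4 library 8. Of 25 genes each of the integrated stress response and the endoplasmic reticulum chaperones 2 rose, and of 44 genes of ribosome biogenesis 1 rose. These are 8.0%, 8.0% and 2.27% of the lists, beside 8.45% of all genes tested. The chaperone count became 0 without untreated library 1 or 2 or IL4 library 8 or 9 and 5 without IL4 library 7. Among 11 genes of the GAIT complex and its kinases 1 fell, Cdk5r1, an activator of the kinase CDK5, with 1.22, 1.04 and 0.974 CPM with IL4 and 2.52, 5.86 and 2.87 CPM untreated (adjusted p 0.0235). The call was lost without untreated library 2 (0.131) and without IL4 library 8 (0.079) or 9 (0.08). The GAIT list thus had 9.09% called, near the share over all genes tested. None of 16 tested genes beside Rpl13a on chromosome 7 was called.

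Markers of other cell types were examined beside these changes. Of 7 endothelial genes tested 2 rose and 1 fell, and their summed level was 293 to 502 CPM with IL4 and 132 to 218 CPM untreated. Pecam1, an adhesion molecule of endothelium and leukocytes, had 24.3, 18.9 and 31.8 CPM with IL4 and 3.47, 2.29 and 0.626 CPM untreated (log2 fold change 3.56, SE 0.45, adjusted p 0.000168). Kdr fell, with 1.42, 2.5 and 2.43 CPM with IL4 and 7.38, 7.86 and 10.7 CPM untreated (adjusted p 0.0291), a call lost without untreated library 2 (0.0576) or 3 (0.0692) or any IL4 library (0.0676 to 0.0813). The defining endothelial gene Cdh5 had 0.285, 0.331 and 4.14 CPM with IL4 and 4.12, 1.1 and 1.32 CPM untreated, and the genes Tek and Cldn5 were under the filter. Vwf, the von Willebrand factor of endothelium and megakaryocytes, was the other rise, with 343, 162 and 143 CPM with IL4 and 107, 73.6 and 36 CPM untreated (log2 fold change 1.58, SE 0.46, adjusted p 0.0451). Its call was lost without untreated library 2 (0.126) or 3 (0.136) or IL4 library 7 (0.162) or 8 (0.0575). Dendritic cell markers summed to 160.4 to 210.9 CPM with IL4 and 105 to 115 CPM untreated, and 2 of 7 rose, Batf3 and Cd24a (0.0552 for Cd24a without untreated library 2), while Flt3 and Siglech were under the filter. Eosinophil, mast cell and basophil markers summed to 12.6 to 24.9 CPM with IL4 and 1.62 to 7.89 CPM untreated through Siglecf, with Epx at 0 in all 6 libraries. Siglecf had 23.4, 10.3 and 20.8 CPM with IL4 and 5.34, 1.38 and 3.89 CPM untreated (adjusted p 0.0253), and the call was lost without untreated library 2 (0.106) or 3 (0.0653) or IL4 library 7 (0.0618) or 9 (0.0709). The part of such cells in the results was not tested. No marker of fibroblasts, bone-forming cells, T and NK cells, B cells or the erythroid line was called by edgeR.

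The IL4 libraries were also set against knockout cells treated with IFN, a comparison that shares the IL4 libraries with the one above. They differed in 2723 genes, which is 21.8% of those tested. Mrc1 averaged 1743 ± 456 CPM with IL4 and stood 6.66 on the log2 scale above IFN-treated cells (adjusted p 7.37e-08). Arg1 was 8.36 above them on that scale (adjusted p 5.31e-06), and Egr2 6.48 (adjusted p 5.31e-06). Some genes that rose with IL4 over untreated cells were lower with IL4 than with IFN. The log2 difference was -2.24 for Socs1 (adjusted p 0.000838), -2.82 for Ciita (adjusted p 0.000473) and -2.85 for Cd274, which encodes PD-L1 (adjusted p 0.00172). The rise of Cd274 over untreated cells (adjusted p 0.0304) was itself lost without untreated library 2 (0.117) or 3 (0.0994) or IL4 library 7 (0.106) or 8 (0.0579). Other genes of the response did not part the cytokines at this threshold, among them Ppargc1b (log2 difference -0.11, adjusted p 0.855), Ocstamp (0.45, adjusted p 0.585), Tbxas1 (0.03, adjusted p 0.965) and Nptx1 (0.45, adjusted p 0.604).

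The same response was then set beside that of wild-type macrophages. In wild-type cells 903 genes were called, 7.22% of those tested, with 541 higher (4.32%) and 362 lower (2.89%). Untreated wild-type libraries 2 and 3 were far more alike than any other pair of the series (chi-square per degree of freedom 6.01, against 51.6 to 185 in the other pairs within groups), though not within sampling noise, so the untreated wild-type group may hold fewer than 3 independent samples. That touches the wild-type calls, their overlap with the knockout calls and the test of the difference. Both genotypes shared 677 called genes, which is 64.0% of the knockout calls and 74.97% of the wild-type calls, and every shared gene moved in the same direction. Of the 1058 knockout calls 1050 had the same sign in wild-type cells. For the difference of the responses 0 genes were called by edgeR, and 189 genes (1.51%) had an unadjusted p under 0.05. DESeq2 called 1, a predicted gene, limma on TPM called 0, and a fit with Y-linked RNA as a covariate called 0 with edgeR. Arg1 rose by 11.28 in knockout and 11.03 in wild-type cells on the log2 scale, Mrc1 by 2.51 and 2.58, Socs1 by 5.04 and 5.06, and Cx3cr1 fell by 5.38 and 5.12. The IL4 surface list had 15 rises in knockout and 13 in wild-type cells, the NF-kB and inflammasome list 8 and 7 falls, and oxidative phosphorylation 10 and 1 rises. Those 10 rises rested on single libraries, as given above. The median log2 fold change of oxidative phosphorylation was 0.56 in knockout and 0.34 in wild-type cells. In edgeR's test of the difference, 2 of its 69 genes had an unadjusted p under 0.05.

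**Figure D5:**
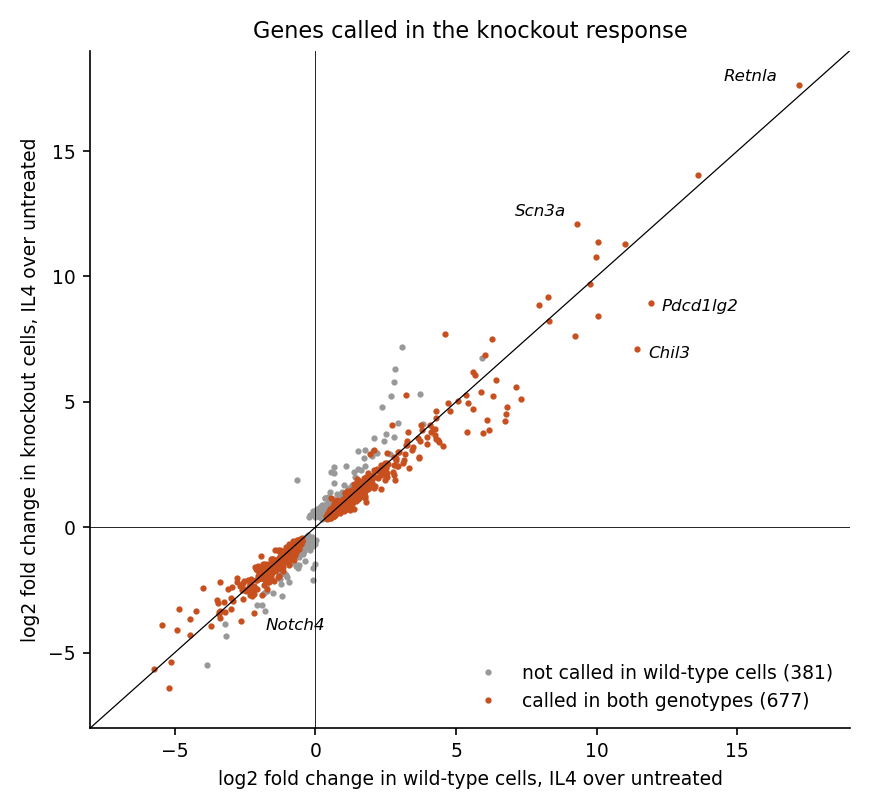
Log2 fold change with IL4 in knockout cells (vertical axis) against that in wild-type cells (horizontal axis) for the 1058 genes called in knockout cells, with the line of equal response. The 677 genes also called in wild-type cells lie on the same side of 0 in both genotypes, and Chil3 and Pdcd1lg2 lie below the line.

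Some genes had fold changes that differed between the genotypes, with none reaching the threshold over all genes. The genes given here were picked from those with an unadjusted p under 0.05 for the difference. Over all genes tested that share was 1.51%, which is lower than the 0.05 met on average where no gene differs. These values therefore do not set the genes apart from chance. Chil3 had a log2 fold change of 7.09 in knockout cells and 11.45 in wild-type cells (difference -4.36, unadjusted p 0.0412). Notch4 had -3.43 in knockout cells and -2.20 in wild-type cells (difference -1.23, unadjusted p 0.00504). Ak1 had 1.78 in knockout cells and 0.67 in wild-type cells (difference 1.11, unadjusted p 0.0196). Rpl26, a ribosomal protein gene, had 0.65 in knockout cells and -0.07 in wild-type cells (difference 0.72, unadjusted p 0.00704). Among the 4 differences of lowest p were Gbp8, an interferon-inducible GTPase (difference 1.62, unadjusted p 0.000986), and Casp12, a caspase (difference 2.51, unadjusted p 0.00173). Each of these had an adjusted p of 1 for the difference, so none was called.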

How the data were processed

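RNA-seq of mouse bone marrow-derived macrophages was analysed in 6 groups of 3 libraries. Libraries were made from poly-A RNA, per the labels' protocols, which name both a directional and a non-directional kit, so antisense reads may not be separated. The deposited expected counts per gene and TPM were made by the authors with RSEM 1.2.3 and Bowtie 0.12.8 on mm10, per the submitters' processing notes. A second deposited TPM table, scaled to a common median, was not used here. All 18 libraries were mapped to groups by their titles, and 0 value columns had no sample.

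Expected counts were rounded, since 21.54% were not whole. In R 4.3.3, edgeR 4.0.16 filtered genes (filterByExpr), scaled them (TMM) and fitted a robust quasi-likelihood model to all 18 libraries with 1 coefficient per group (biological coefficient of variation 0.301). Contrasts were IL4 minus untreated in each genotype, the difference of these and IL4 minus IFN in knockout cells. P-values were Benjamini-Hochberg adjusted over the 12514 genes tested, with a threshold of 0.05. The SE is the size of the log2 fold change divided by the root of the F statistic. Levels are TMM-normalized CPM, while TPM is used to compare genes. A gene with 0 counts in a group was set to 3 counts over that group, and exact 95% intervals cover counting error only. Gene positions come from GENCODE vM21, in which 21856 of the 21954 genes matched by Ensembl ID. Alternatives were DESeq2 1.42.0, other scalings, no filter, limma 3.58.1 on log2 TPM plus 1 or 0.1, fewer libraries and each library left out. The fitting code was tested on simulated counts with known changes.

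Named genes were the 12 largest rises and 12 largest falls whose higher group averaged 5 CPM or more and whose groups did not overlap, up to 4 called members of lowest p of each list with at least 3 called, a preset list of known genes, and the 4 differences of lowest p, without predicted genes. Cd24a, Cdh5, Cdk5r1, Chil4, Clec12a, Mki67, Odc1, Pdgfb, Psmb10, Siglecf, Socs3, Tnf and, in the closing section, Cd300ld, Nfil3, Fyn, Ms4a6d, Cst7, Ctsz, Adam17, Cebpa and Maf fall outside that rule and were chosen after their values were seen. Members and lists were chosen with earlier results of these data known. Some genes called are not reported here.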

Additional observations from a re-analysis of the deposited data

Results flagged for a closer look

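In 2 genes of the knockout IL4 response every knockout library with IL4 was above every untreated knockout library while every wild-type library with IL4 was below every untreated wild-type library. Pdcd10, a gene of vascular malformation and cell death pathways, had 82.4, 70.8 and 62.4 CPM with IL4 and 53.4, 55.1 and 53.9 CPM untreated in knockout cells. Its log2 fold change was 0.41 in knockout and -0.22 in wild-type cells, a difference of 0.631 (unadjusted p 0.00123). Trappc2l, a gene of vesicle transport, had 31.5, 32.4 and 33.3 CPM with IL4 and 22.9, 22.3 and 24.8 CPM untreated in knockout cells. Its log2 fold change was 0.48 in knockout and -0.19 in wild-type cells, a difference of 0.662 (unadjusted p 0.00244). Both differences had an adjusted p of 1 in edgeR's test over all genes and so were not called. Both genes are also among the 4 differences of lowest p, so the order of the libraries adds no separate support. In knockout cells alone, all 3 IL4 libraries lay above all 3 untreated ones in 11.3% of the genes tested. The share of all genes tested with opposite order in the 2 genotypes was not counted. The rise of Pdcd10 in knockout cells (adjusted p 0.0351) was kept with IL4 library 9 left out and lost without any of the other 5 libraries (0.081 to 0.122), and that of Trappc2l (adjusted p 0.0325) was lost without any 1 of the 6 (0.0565 to 0.139).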

How the results depend on the processing

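The count of 1058 genes was lower in 3 settings with fewer libraries. It was 365 (211 higher and 154 lower) with only the 6 libraries compared, 571 (324 and 247) with the 9 knockout libraries and 473 (277 and 196) without knockout libraries 3 and 9. DESeq2 called 1556, of which 854 were higher and 702 lower, and 1052 of its calls were also edgeR's. Limma on log2 TPM plus 1 called 353 higher and 953 lower, and 338 and 901 with a pseudocount of 0.1. Leaving out 1 library gave 597 to 1067 genes, 354 to 569 of them higher and 243 to 498 lower. The wild-type count of 903 became 1420 with DESeq2 and 543 to 832 with 1 library left out. For the difference of the responses DESeq2 called 1 gene and every other setting called 0. Untreated and IL4 libraries carry the same numbers in both genotypes. Same-numbered libraries correlated at 0.072 to 0.746 in their deviations from the group means over 9712 genes, and untreated knockout library 3 matched wild-type number 2 best. With the number as a block the difference again had 0 calls. The knockout response alone was not blocked, since its groups share no numbers and the titles name no pairs. In both groups the summed level of replication and mitosis genes rose in the order of the numbers. It was 1744, 3106 and 5136 CPM untreated and 1867, 3898 and 4920 CPM with IL4. A pairing of the knockout libraries by that order was not tested. Of the single-gene values 15 reversed sign, none of them called. With 1 library left out, Tgm2 ran between -0.233 and 0.251, Cd209a between -3.438 and 0.783, Cxcl9 between -3.634 and 2.693, Nos2 between -3.618 and 1.564 and Lyz2 between -0.833 and 0.367. Tgm2 also fell below 0 with upper quartile scaling (-0.034), no filter (-0.004), TPM plus 1 and 0.1 (-0.205 and -0.206), only the 6 libraries (-0.013) and without libraries 3 and 9 (-0.043). The causes of these shifts were not tested. With 3 libraries a group and totals of 18098711 to 28477342 counts, changes of genes at a few counts per library are the least certain.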

Other observations

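Some of the lowest p-values of the knockout response belonged to genes outside the groups described above, and the replicates of these genes lay close together. Cd300ld, an immunoglobulin-like receptor of myeloid cells, had 499.5, 613 and 522 CPM with IL4 and 58.3, 53.8 and 55.8 CPM untreated (log2 fold change 3.28, SE 0.213, adjusted p 3.52e-07 in edgeR's test). The leucine zipper repressor gene Nfil3 had 78.6, 55.9 and 49.7 CPM with IL4 and 5.48, 6.24 and 5.51 CPM untreated (log2 fold change 3.42, SE 0.263, adjusted p 2.44e-06). Fyn, a kinase of the Src family, had 206, 244 and 209.9 CPM with IL4 and 56.8, 52.9 and 55.1 CPM untreated (log2 fold change 2.00, SE 0.121, adjusted p 3.12e-07). The groups stood well apart in all 3 genes, and none lost its call when 1 of the 6 libraries was left out.

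Among lysosomal hydrolases and membrane proteins 3 of 39 tested genes rose and 1 fell (median log2 fold change 0.09). That is 10.26% of the list, near the 8.45% called among all genes tested. Without untreated library 2 the list held 2 rises and no fall. Of 16 cathepsins and their inhibitors 2 rose, which is 12.5% of the list. Ctsz, a carboxypeptidase, averaged 1654 ± 34.8 CPM with IL4 and 842 ± 101 CPM untreated (SD, n = 3 each, adjusted p 0.013), and Cst7, an inhibitor of cathepsins, averaged 10.9 ± 5.19 CPM with IL4 and 1.03 ± 0.678 CPM untreated (adjusted p 0.00698). In the Ms4a family of membrane proteins 1 of 11 rose, Ms4a6d (log2 fold change 1.18, SE 0.256, adjusted p 0.00882). Of 22 metalloproteinases and inhibitors 1 rose, Mmp12, and 1 fell, the sheddase gene Adam17 (log2 fold change -0.64, SE 0.134, adjusted p 0.00734). The Ms4a and metalloproteinase lists each had 9.09% called, near the share over all genes tested.

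Of 20 complement genes 1 rose and 2 fell, which is 15.0% of the list, beside 8.45% of all genes tested. The C5a receptor genes C5ar1, with 110.4, 274 and 162 CPM with IL4 and 389, 737 and 729 CPM untreated (adjusted p 0.0148), and C5ar2, with 4.52, 8.22 and 5.45 CPM with IL4 and 16.7, 26.6 and 23.1 CPM untreated (adjusted p 0.0111), were the falls. C5ar1 lost the call without untreated library 2 (0.0547) or IL4 library 9 (0.0579). Of 25 macrophage identity genes 2 rose and 4 fell. The low-affinity Fc receptor gene Fcgr3 had 702, 809.5 and 685 CPM with IL4 and 380.3, 410.0 and 253 CPM untreated (log2 fold change 1.07, SE 0.197, adjusted p 0.00283). The myeloid transcription factor gene Cebpa rose by 0.77 (adjusted p 0.0171, but 0.0803 and 0.0774 without untreated libraries 2 and 3 and 0.0547 without IL4 library 9). The transcription factor gene Maf fell by 0.89 (adjusted p 0.0333, but 0.0598 and 0.134 without untreated libraries 1 and 2 and 0.0843 and 0.0986 without IL4 libraries 7 and 9). In lipid uptake and efflux 3 of 25 rose and 1 fell, and Cd36 was the member that kept its call whichever library was left out. Of 17 costimulatory and checkpoint ligands 3 rose and 1 fell, and Pdcd1lg2 and Icosl kept theirs.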
